A study of Mus musculus with 2 samples.

Results

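ThPOK, encoded by *Zbtb7b*, its relative LRF, encoded by *Zbtb7a*, and 6 factors that act above or beside ThPOK in the choice between the CD4 and CD8 lineages were described in RNA-seq of mature thymocytes. The 8 genes were taken by their symbols, *Zbtb7b*, *Zbtb7a*, *Gata3*, *Tox*, *Myb*, *Patz1*, *Bcl11b*, and *Satb1*, of 48321 symbols listed, with earlier results of these data known. The only group, MHC-II0:CD8ab Tg, held 2 libraries (replicates 1 and 2) from C57Bl/6 mice. By the study's methods these mice lacked MHC class II (I-Ab-/-) and had disrupted coding regions of both endogenous CD8 chains (Cd8 delta-ab/delta-ab). They carried cDNAs for the CD8alpha and CD8beta chains in the *Rosa26* locus (Rosa26 8a/8b), switched on by Cd4-Cre. The Cre removes a stop cassette in every cell in which the *Cd4* regulatory elements have been active, so the CD8 chains no longer follow the endogenous *Cd8* enhancers. The sorted cells were CD4- mature thymocytes (CD24 low, TCRbeta high), although the sample titles call them CD4-CD8- and the cell type labels call them CD8+. The age of the mice and the number of mice per library are not given in the sources used here, and no untreated or wild-type library was analysed here, so the values below are levels in a single condition.

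Thymocytes that pass positive selection become CD4+ helper or CD8+ cytotoxic T cells. ThPOK, a BTB zinc-finger repressor, is induced in cells selected on MHC class II and holds them in the helper lineage by restraining *Runx3* and other cytotoxic genes, whereas RUNX complexes silence *Zbtb7b* in cells selected on MHC class I. GATA3, TOX, and c-Myb are known as factors needed upstream of ThPOK, MAZR (encoded by *Patz1*) as a repressor of *Zbtb7b* and of the *Cd8* genes, and Bcl11b and SATB1 as regulators of the enhancers and silencers of the lineage genes.

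The libraries held 16732644 and 16245849 counts on genes, and levels were expressed as CPM of these totals, which puts the level of 3 counts, taken as the floor of detection, at 0.179 CPM (replicate 1) and 0.185 CPM (replicate 2). No molecular identifiers were used, and copies of a molecule could be counted more than once, so intervals and floors cover counting error only. The libraries stood apart in sex-linked genes, with 34 and 25266 counts on *Xist* and 2450 and 0 counts on *Ddx3y*, so they did not come from the same animals, and the sex of the donors cannot be told apart from the replicate in any difference between them. All 10 markers of T cells were at 1 CPM or more in both libraries, with a summed level of 4165 CPM in replicate 1 and 4125 CPM in replicate 2, as were all 5 markers of mature thymocytes, with 1970 and 1738 CPM. Per kb of exon the T cell markers ran from *Cd5* to *Trac*, and those of mature thymocytes from *Il7r* to *Klf2*. Markers of double-positive thymocytes summed to 17.2 and 17.97 CPM, most of it from *Dntt* at 13.4 and 12.99 CPM, with 4 and 1 counts on *Rag2* and 2 and 2 counts on *Ptcra*. All 4 erythroid markers had 0 counts in both libraries, which with totals of this size allows up to the floors above. The 4 myeloid markers summed to 11.8 and 13.2 CPM, most of it from *Csf1r* at 9.74 and 11.8 CPM, with 34 and 18 counts on *Itgam*, 0 and 2 on *Lyz2*, and 0 and 4 on *Adgre1*. Of the B cell markers *Cd79b* was at 11.7 and 13.97 CPM and *Ms4a1* had 8 and 5 counts. The 4 constant-region genes of gamma-delta T cells summed to 52.7 and 49.9 CPM, from *Trdc*, the lowest per kb, to *Tcrg-C4*, and the 4 markers of iNKT2 cells to 24.5 and 26.6 CPM, from *Il13* to *Zbtb16*. Those of dendritic cells summed to 3.05 and 3.02 CPM, from *Flt3* to *Xcr1*, and those of thymic epithelium to 3.71 and 4.19 CPM, from *Foxn1* to *Epcam*. The part of these cell types in the levels of the 8 genes was not tested. *Cd4* itself had 12 and 27 counts, or 0.717 and 1.66 CPM. *H2-Ab1*, the class II gene altered in these mice, was at 23.6 and 17.97 CPM. The counts are summed over the gene and do not show whether the altered part was read.

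All 8 genes were detected far above the floor in both libraries, and their mean levels ranged from 16.8 CPM for *Zbtb7b* to 549 CPM for *Satb1*. In bulk RNA a lower level cannot be told apart from fewer cells with the transcript, so none of these values is a level per cell. Since longer transcripts collect more reads, the genes were compared with each other only as CPM per kb of annotated exon (GENCODE M21, GRCm38). On that scale 6 of the 8 were above the median of the tested genes, 4.15 CPM per kb over 15358 genes with a length, and *Zbtb7b* was below it in both libraries. *Myb* was below it in replicate 1, at 2.49 CPM per kb, and in the mean, but above it in replicate 2, at 5.10 CPM per kb.

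**Figure D1:**
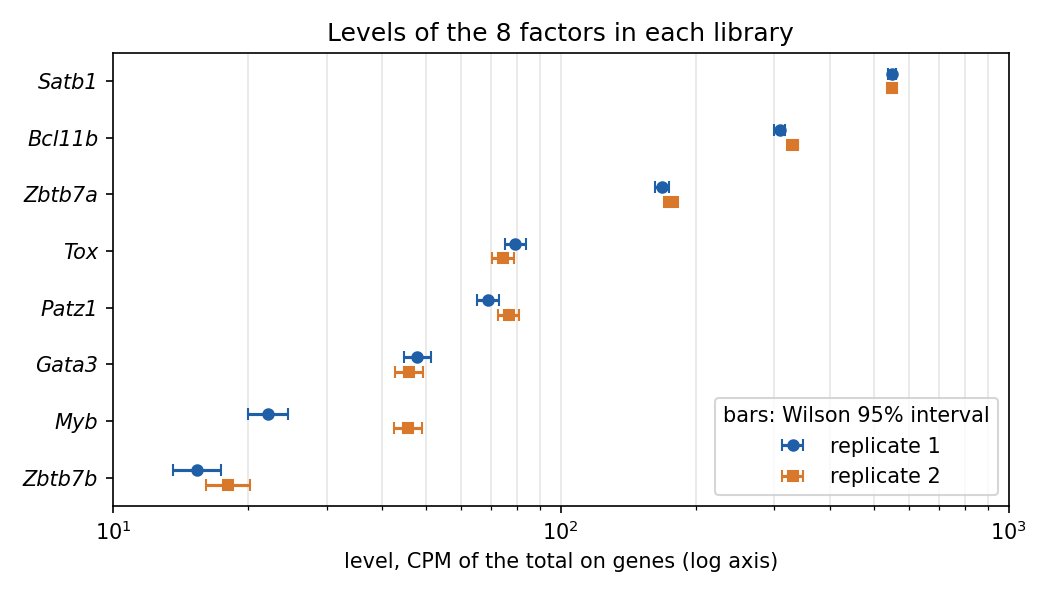
Level of each of the 8 factors in replicate 1 (circles) and replicate 2 (squares), in CPM on a log axis, with Wilson 95% intervals as bars. The libraries lay close together for 7 genes, and *Myb* differed, at 22.2 CPM (replicate 1) and 45.6 CPM (replicate 2).

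*Zbtb7b* lies at chr3:89377644-89394776 on the minus strand of GRCm38 and is annotated with 9 transcripts. It received 258 counts in replicate 1 and 294 in replicate 2. These are 15.4 CPM (Wilson 95% interval 13.6 to 17.4) and 18.1 CPM (16.1 to 20.3), a mean of 16.8 ± 1.89 CPM (SD, n = 2). The intervals of the libraries overlapped. Per kb of exon its level was 2.76 and 3.24 CPM, a mean of 2.997 ± 0.339 CPM per kb, the lowest of the 8 genes and above 43.6% of the tested genes. The transcript of the helper-lineage factor was thus present in RNA of cells sorted as CD4-. Another zinc-finger factor of the BTB family, PLZF (*Zbtb16*), which drives innate-like T cells, was at 19.9 ± 2.39 CPM. The ratio of *Zbtb7b* to *Zbtb16* per kb was 0.795 ± 0.00554. That SD is the spread of 2 libraries only, and relative to its mean it is narrower than the Wilson intervals of *Zbtb7b* above.

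*Zbtb7a* lies at chr10:81135220-81152995 on the plus strand. LRF, its product, shares the BTB domain and zinc fingers of ThPOK and is known to act redundantly with it in preserving helper T cells. Its counts of 2814 and 2865 gave 168 and 176 CPM, a mean of 172 ± 5.78 CPM and 25.3 ± 0.849 CPM per kb, above 88.0% of the tested genes. Per kb its level exceeded that of *Zbtb7b* by 8.96 times in replicate 1 and 8.003 times in replicate 2, with a mean ratio of 8.48 ± 0.675. The ratio is formed within a library and is therefore free of the library total, but it depends on the length used. It was 7.53 per kb of the longest transcript and 9.87 per kb of coding sequence. The remaining relative, *Zbtb7c*, had 0 counts in both libraries.

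Stretches before annotated starts are shown for *Zbtb7b*, *Zbtb7a*, and *Myb*, the members with a window that holds no annotated exon. Those of *Zbtb7b* and *Zbtb7a* lie inside the annotated genes, before internal starts, and that of *Myb* lies just outside its gene. Each is the 250 bases before a start site in RefSeq's annotation of GRCm38.p6, read along the gene's strand, at chr3:89387672-89387921 (minus) for *Zbtb7b*, chr10:81136021-81136270 (plus) for *Zbtb7a*, and chr10:21160985-21161234 (minus) for *Myb*. Capitals mark matches, on either strand, to TGTGGT (the core bound by RUNX factors), GATAA (GATA factors, TTATC on the other strand), and TAACNG (MYB), and no marked matches overlap each other.
*Zbtb7b*: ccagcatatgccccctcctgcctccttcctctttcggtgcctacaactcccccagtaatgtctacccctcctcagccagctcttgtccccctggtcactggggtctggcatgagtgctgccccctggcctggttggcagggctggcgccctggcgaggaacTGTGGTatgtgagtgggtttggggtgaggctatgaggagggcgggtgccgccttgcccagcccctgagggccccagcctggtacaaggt
*Zbtb7a*: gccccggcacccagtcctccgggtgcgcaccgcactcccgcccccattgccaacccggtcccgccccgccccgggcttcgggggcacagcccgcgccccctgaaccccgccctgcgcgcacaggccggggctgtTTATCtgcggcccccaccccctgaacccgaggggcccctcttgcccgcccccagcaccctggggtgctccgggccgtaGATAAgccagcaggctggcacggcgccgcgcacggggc
*Myb*: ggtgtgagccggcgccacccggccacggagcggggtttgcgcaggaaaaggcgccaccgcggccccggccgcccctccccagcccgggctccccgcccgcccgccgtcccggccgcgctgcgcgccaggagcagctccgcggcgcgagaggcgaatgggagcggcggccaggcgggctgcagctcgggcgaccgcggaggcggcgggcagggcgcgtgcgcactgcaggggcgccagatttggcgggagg
The *Zbtb7b* window held 1 TGTGGT, a match found in 14.05% of 32851 windows of the same length. The window before another RefSeq start of *Zbtb7b*, at chr3:89393379-89393628, lies partly in annotated exon, is not printed, and held none of the motifs. The *Zbtb7a* window held 2 matches to GATAA, a motif present in 22.6% of the windows. The *Myb* window held none of the motifs, and TAACNG was present in 19.8% of the windows. The windows of the other members lay wholly or partly in annotated exon and are not printed either. Among them the overlapping *Satb1* windows at chr17:51812055-51812304 and chr17:51812185-51812434 each held 1 TAACNG, and the rest held none of the motifs. These are matches of letters and not binding sites, and the windows do not reach the distal enhancers and the silencer that are known to control *Zbtb7b*. The G and C content was 64.8% in the *Zbtb7b* window, 78.0% in that of *Zbtb7a*, and 81.2% in that of *Myb*.

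Of the factors known to act upstream of ThPOK, *Gata3*, at chr2:9857078-9890034 on the minus strand, encodes the zinc-finger factor that is needed for the helper lineage. It had 801 and 745 counts, or 47.9 and 45.9 CPM, with a mean of 46.9 ± 1.42 CPM and 11.8 ± 0.358 CPM per kb. Its level per kb was 3.96 ± 0.567 times that of *Zbtb7b*. Of its relatives, *Gata2*, *Gata4*, and *Gata5* had 0 counts in both libraries and *Gata6* had 1 and 1 counts. *Gata1*, the erythroid member of the family, was at 3.77 and 4.80 CPM, and *Gata3* exceeded it per kb by 6.82 ± 1.37 times.

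*Tox*, at chr4:6686353-6991557 on the minus strand, encodes an HMG-box protein required for CD4 lineage development. Its 1325 and 1205 counts gave 79.2 and 74.2 CPM, a mean of 76.7 ± 3.55 CPM and 10.1 ± 0.466 CPM per kb. *Tox* was not the highest gene of its family. *Tox4*, which is expressed widely across tissues, was at 110 ± 3.796 CPM, and *Tox* was at 0.638 ± 0.0515 of it per kb. *Tox2* had 8 and 6 counts and *Tox3* had 0 in both libraries.

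*Patz1*, at chr11:3288874-3309083 on the plus strand, encodes MAZR. It had 1152 and 1243 counts, or 68.8 and 76.5 CPM, with a mean of 72.7 ± 5.42 CPM and 12.3 ± 0.918 CPM per kb. Per kb of exon this repressor was 4.12 ± 0.159 times the level of *Zbtb7b*, a ratio that depends on the length used. Per kb of the longest transcript the mean levels were 19.6 CPM for *Patz1* and 3.87 CPM for *Zbtb7b*. Per kb of coding sequence they were 35.3 and 10.3 CPM. A share of 9.16% of the 50-base windows in *Patz1* transcripts is found in other genes too, the highest share of the 8. Genes that overlap *Patz1* on either strand are counted in this share. An antisense transcript, *Gm12592*, covers 605 bases of *Patz1* exons (10.2%) and had 356 and 389 counts of its own. The library kit does not mark strand, so reads of *Patz1* and *Gm12592* from the shared bases cannot be told apart.

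*Bcl11b* and *Satb1* were the most abundant of the 8. *Bcl11b*, at chr12:107910403-108003602 on the minus strand, encodes a zinc-finger factor needed for T cell commitment and for the lineage programs of selected thymocytes. Its 5156 and 5353 counts gave 308 and 329.5 CPM, a mean of 319 ± 15.1 CPM and 39.3 ± 1.86 CPM per kb, above 92.9% of the tested genes. Its paralog *Bcl11a*, a factor of B cells and progenitors, had 3 and 5 counts. *Satb1*, at chr17:51736187-51833290 on the minus strand, encodes a chromatin organizer that is abundant in thymocytes. Its 9200 and 8907 counts gave 550 and 548 CPM, a mean of 549 ± 1.10 CPM and 28.9 ± 0.0580 CPM per kb.

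In the order of levels per kb of exon, *Bcl11b* was followed by *Satb1*, *Zbtb7a*, *Patz1*, *Gata3*, *Tox*, *Myb*, and *Zbtb7b*. *Patz1* and *Gata3* overlapped between the libraries, as did *Myb* and *Zbtb7b*, and in replicate 1 *Myb* was the lower of the latter with 2.49 CPM per kb against 2.76. The other neighbours did not overlap. The order at the top rested on the length used. The exons annotated for *Satb1* add up to 19027 bases over 14 transcripts, whereas its longest transcript has 6243 bases. Per kb of the longest transcript *Satb1* was first with 87.9 ± 0.177 CPM per kb, against 39.3 ± 1.86 for *Bcl11b*, and it was also first per kb of coding sequence. *Zbtb7a* was the third, *Myb* the seventh, and *Zbtb7b* the last in mean level under all 3 lengths, and *Patz1*, *Gata3*, and *Tox* changed places among themselves.

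**Figure D2:**
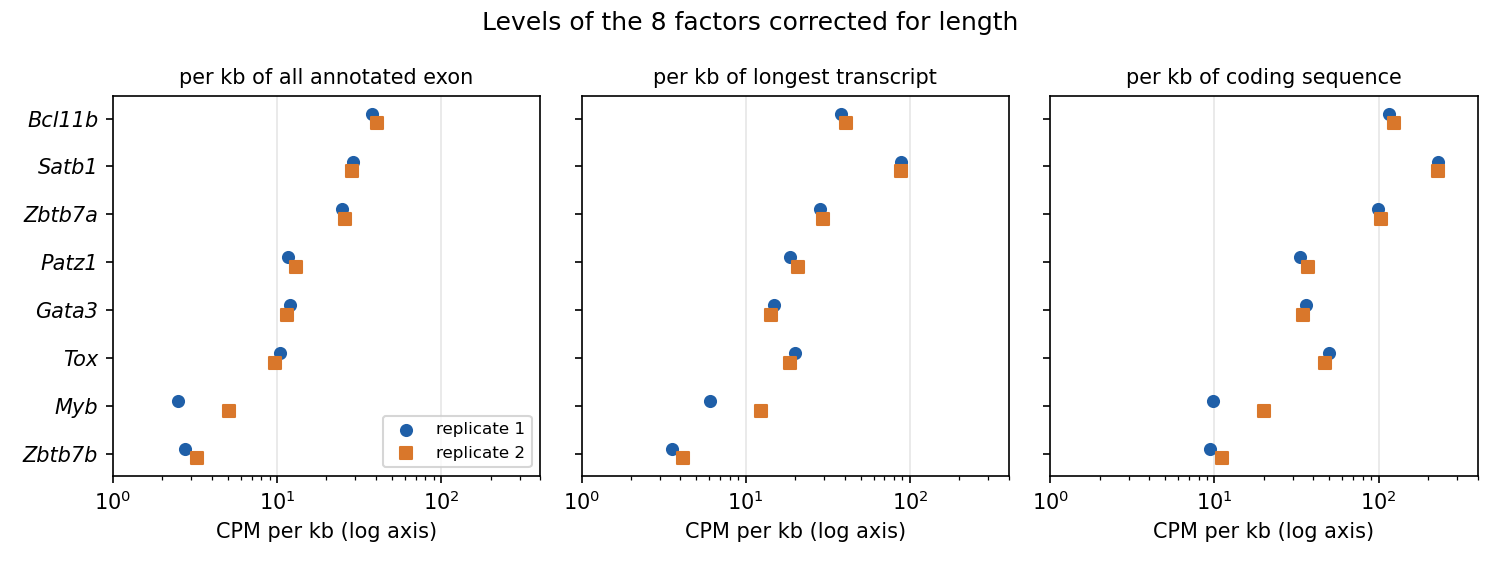
Levels of the 8 factors in CPM per kb (log axis) in replicate 1 (circles) and replicate 2 (squares), with the length taken as all annotated exon, the longest transcript, or the coding sequence. *Satb1* was below *Bcl11b* at 28.9 CPM per kb of exon but above it at 87.9 CPM per kb of the longest transcript, and *Zbtb7b* had the lowest mean in each panel.

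*Myb* was the gene of the 8 that separated the libraries. It encodes c-Myb, a factor of immature and dividing hematopoietic cells that is needed for double-positive thymocytes and for the induction of *Gata3* in CD4 lineage development, and it lies at chr10:21124935-21160984 on the minus strand, where the longest coding transcript has 16 exons. Replicate 1 gave it 372 counts and replicate 2 gave it 740, or 22.2 CPM (20.1 to 24.6) and 45.6 CPM (42.4 to 49.0), with a mean of 33.9 ± 16.5 CPM and 3.79 ± 1.85 CPM per kb. The intervals were far apart. To ask whether the spread exceeded counting error, an exact binomial test (two-sided) set the counts of replicate 2 against those of replicate 1 for each of 15949 genes with at least 10 counts, and p-values were adjusted over all of these by Benjamini and Hochberg's method. That test compares these libraries and not conditions. *Myb* was 2.05-fold higher in replicate 2 (log2 ratio 1.03, 95% interval 0.85 to 1.22, adjusted p = 8.02e-29).

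*Myb* was the only member of the 8 with an adjusted p under 0.05 and a difference of at least 2-fold, while 1.52% of all tested genes passed both (242 genes, 0.94% being higher in replicate 2). The 2-fold limit was just met. With library sizes from TMM or DESeq2 the log2 ratio was 0.96 or 0.97, so that none of the 8 passed both limits, although the adjusted p stayed at 1.73e-24 or less. The split of the 242 genes also moved with the scale, from 92 higher in replicate 1 and 150 in replicate 2 to 100 and 98 with TMM. Among 9743 genes with at least 200 counts, 29 had a larger absolute log2 ratio than *Myb*.

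On the adjusted p alone, which 16.3% of the tested genes passed (13.5% being higher in replicate 2), *Bcl11b* passed as well, with 308 and 329.5 CPM (log2 ratio 0.10, exact binomial test, adjusted p = 0.00638), but not with TMM library sizes, where its adjusted p was 0.795, or DESeq2 size factors, where it was 0.512. *Satb1* passed with TMM (log2 ratio -0.08, adjusted p = 0.00236) and with DESeq2 (adjusted p = 0.0256) but not with the totals, *Tox* passed with TMM (log2 ratio -0.17, adjusted p = 0.0300), and *Patz1* passed with the minimum raised to 100 counts (adjusted p = 0.0436). With TMM and no fold limit 1688 genes passed, 812 of them higher in replicate 2, against 2596 and 2146 with the library totals. For *Zbtb7b* the log2 ratio was 0.23 with an interval from -0.02 to 0.48 (exact binomial test, adjusted p = 0.208). The 7 genes other than *Myb* had absolute log2 ratios of at most 0.23 and a median of 0.09, beside a median of 0.11 over the 9743 genes. *Zbtb7a* had a log2 ratio of 0.07 with the totals and -0.01 with TMM, both without passing the test.

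**Figure D3:**
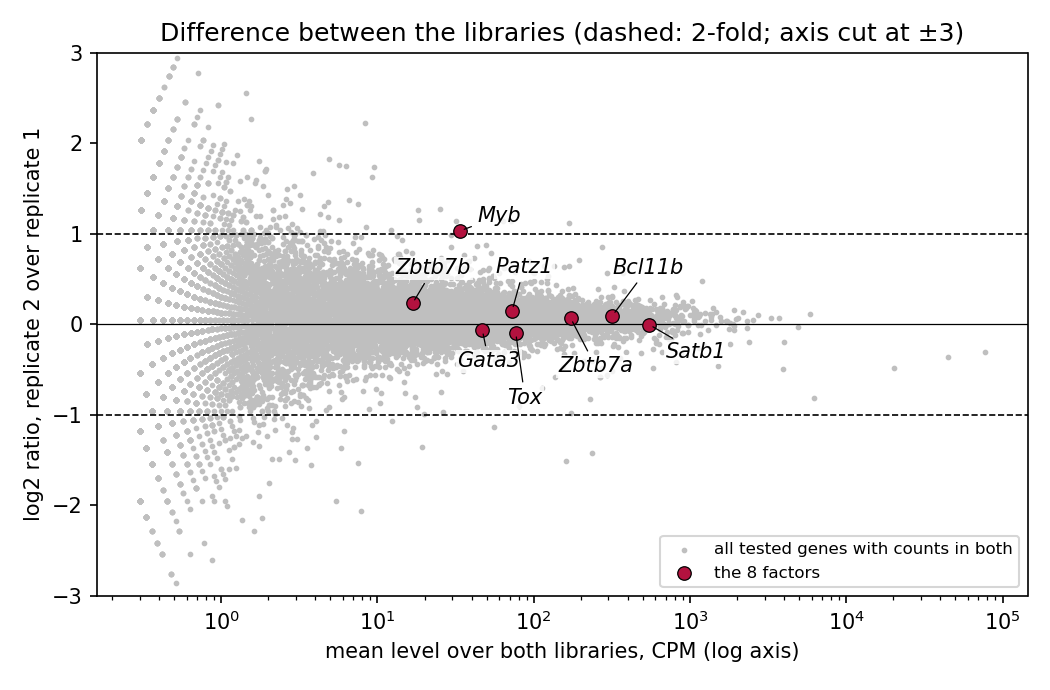
Log2 ratio of replicate 2 to replicate 1 against the mean level in CPM (log axis), for all tested genes with counts in both libraries (grey) and the 8 factors (red). *Myb* sat on the dashed 2-fold line at 1.03, and the other 7 lay between -0.09 and 0.23.

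The genes around *Myb* and its relatives were set beside this difference. *Gm26577*, an antisense transcript that covers 559 bases of *Myb* exons (6.26%), had 59 and 127 counts and was likewise higher in replicate 2 (log2 ratio 1.15, exact binomial test, adjusted p = 6.08e-06). Without strand, reads from the bases shared with *Myb* cannot be told apart, and their part in the difference was not tested. The nearest protein-coding genes on either side, *Ahi1* with 222 and 215 counts and *Hbs1l* with 791 and 867 counts, did not pass (adjusted p = 1.00 and 0.0747). *Mybl2*, a relative of *Myb* linked to the cell cycle, was at 4.12 and 6.59 CPM (log2 ratio 0.68, adjusted p = 0.0198), and *Mybl1* was at 1.43 and 1.79 CPM. The proliferation gene *Mki67* was at 77.4 and 84.6 CPM and *Top2a* at 49.5 and 55.9 CPM (adjusted p = 0.1004 and 0.0654). *Ahi1*, *Hbs1l*, *Mki67*, and *Top2a* were chosen after the values of *Myb* were seen.

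Some marker groups also differed between the libraries, in either direction. With the library totals, all 3 markers of NK cells had an adjusted p under 0.05 and were higher in replicate 2, beside 13.5% of all tested genes, with a summed level of 35.0 and 48.1 CPM. *Klrb1c*, the highest of them per kb, was at 22.1 and 27.5 CPM, and *Ncr1* among them passed the 2-fold limit with 2.69 and 6.89 CPM. Of the 5 markers of mature thymocytes 3 had an adjusted p under 0.05, all lower in replicate 2, beside 450 of the 15949 tested genes, and *S1pr1*, which lets mature cells leave the thymus, was at 318 and 227 CPM. Of the 10 markers of T cells 6 passed on the adjusted p, which 16.3% of all genes did, and 2 of the 6 were higher in replicate 2. The median level was 273 CPM for the markers of mature thymocytes and 399 CPM for those of T cells, beside 13.7 CPM over all tested genes. At higher counts the test passes smaller differences, so these shares do not compare genes of like level. None of the 4 tested markers of double-positive thymocytes passed, and *Rag1* had 8 and 19 counts. The part of these differences, and of the sex-linked genes, in the value of *Myb* was not tested.

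Of the relatives of the 8 factors, most were at or near 0. Of 13 paralogs, 5 had 0 counts in both libraries, another 2 were at or under 3 counts in each, and 4 were at 1 CPM or more in both, with *Tox4* the highest per kb. None of the 5 with enough counts to be tested passed both limits between the libraries, beside 1.52% of all tested genes. All 6 of the other BTB zinc-finger factors of T cells were at 1 CPM or more in both libraries, and per kb they ran from 1.19 ± 0.430 CPM per kb for *Zbtb32* to 10.4 ± 1.39 for *Zbtb17*. *Bcl6*, a repressor that drives follicular helper cells, was at 11.7 and 17.7 CPM (log2 ratio 0.60, exact binomial test, adjusted p = 1.28e-04).

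The genes on either side of the lineage choice were placed beside *Zbtb7b*. *Runx3*, the factor of the cytotoxic lineage, was at 217 and 240 CPM, and per kb of exon its level was 15.7 times that of *Zbtb7b* in replicate 1 and 14.8 times in replicate 2, with a mean of 15.3 ± 0.666. It was 3.88 ± 0.387 times that of *Gata3*, and 15.0 ± 0.506 times that of *Runx1*. These ratios depend on the length used, and per kb of coding sequence *Runx3* was at 180 CPM and *Gata3* at 35.3 CPM. Of 7 helper-lineage genes, 4 were at 1 CPM or more in both libraries. Per kb the highest was the costimulatory receptor *Icos* with 21.8 ± 2.69 CPM per kb and the lowest was the cytokine gene *Il21* with 0.138 ± 0.0624 CPM per kb. The T regulatory factor *Foxp3* was at 12.2 ± 0.212 CPM, *Maf* at 17.3 ± 2.89 CPM, and *Cd40lg* at 6.64 ± 0.419 CPM, so that *Zbtb7b* was not the only helper-associated transcript in this bulk RNA. Other genes of the list were low, with 12 and 27 counts on *Cd4*, 11 and 7 on *Il4*, and 16 and 8 on *Il21*. Which cells held these transcripts was not tested. No helper-lineage gene passed both limits between the libraries, beside 1.52% of all tested genes. On the adjusted p alone 2 of the 7, *Icos* and *Maf*, passed, and both were higher in replicate 2. Of all tested genes 16.3% passed on it, with 13.5% higher in replicate 2.

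All 13 cytotoxic-lineage genes were at 1 CPM or more in both libraries. Per kb their levels ran from 7.001 ± 1.44 CPM per kb for *Gzmk* to 526 ± 4.998 for *Cd8b1*. Reads of *Cd8b1* and of *Cd8a*, also in this list, can come from the *Rosa26* cDNAs. By the study's methods a single exon of each endogenous gene was replaced, so reads of what remains can be counted too. The sources were not told apart. *Gzma* was the 1 gene of this list that passed both limits, beside 1.52% of all tested genes. It was at 4.36 and 14.6 CPM (log2 ratio 1.74, exact binomial test, adjusted p = 1.69e-20). *Eomes*, a T-box factor of memory-like CD8 cells, was at 196 and 355 CPM, short of 2-fold (log2 ratio 0.86, exact binomial test, adjusted p = 6.78e-166). The other 15 factors of the CD4 versus CD8 choice, *Runx3* included, were all at 1 CPM or more, from 3.04 ± 0.313 CPM per kb for *Runx1* to 317 ± 9.35 for *Tcf7*. None of them passed both limits, beside the same 1.52% of all tested genes. On the adjusted p alone 10 of the 13 cytotoxic-lineage genes passed, 7 of them higher in replicate 2, and 10 of the 15 factors passed, 9 of them higher in replicate 2, beside 16.3% and 13.5% of all tested genes. The median log2 ratio of the 15 factors was 0.13, beside 0.08 for all tested genes. Median levels were 118 and 200 CPM in these lists and 13.7 CPM over all tested genes. At higher counts the test passes smaller differences, so the shares do not compare genes of like level. With TMM and no fold limit, 876 of the genes that passed were higher in replicate 1 and 812 in replicate 2.

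**Figure D4:**
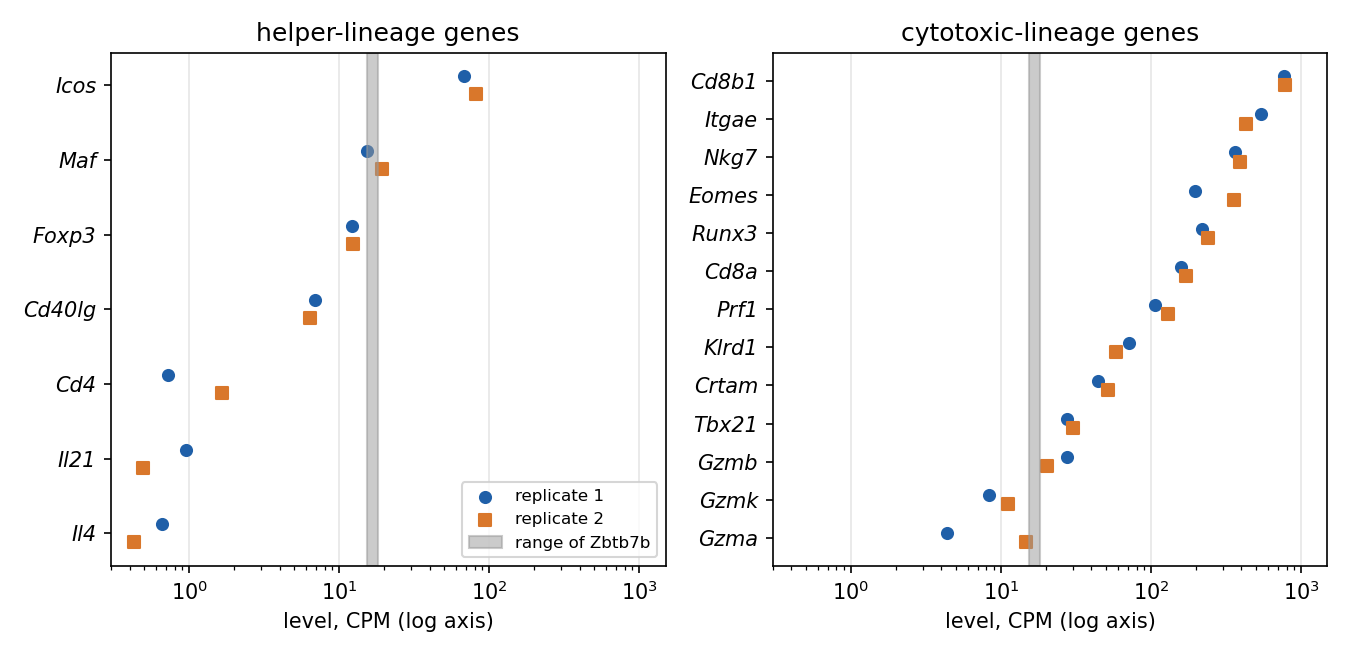
Levels in CPM (log axis) of 7 helper-lineage and 13 cytotoxic-lineage genes in replicate 1 (circles) and replicate 2 (squares), with the range of *Zbtb7b* between the libraries as a grey band. Levels are not corrected for length, so the panels show each gene in both libraries, with *Gzma* the gene that differed by at least 2-fold in the exact binomial test.

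Annotated genes that overlap exons of the 8 on the opposite strand bear on their counts, since the strand setting of the counting is not given in the sources used here. *Gm15417* covers 116 bases of *Zbtb7b* (2.07%) and had 7 and 9 counts. *Gm13256* covers 155 bases of *Gata3* with 68 and 60 counts, *Gm11802* covers 260 bases of *Tox* with 122 and 115 counts, and *Gm6934* covers 128 bases of *Satb1* with 102 and 108 counts. *Zbtb7a* and *Bcl11b* share no exon with another annotated gene, and with 0% and 0.270% of their 50-base windows in other transcripts their counts were the least open to shared reads.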

How the data were processed

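The authors extracted RNA from sorted thymocytes, made poly(A) libraries without molecular identifiers, mapped single-end reads with TopHat2 2.1.1 onto mm10 (GRCm38), and deposited raw counts per gene from HTSeq 0.6.1. The annotation used for counting is not given in the sources used here. Lines for unassigned reads were left out of the totals, and reads that HTSeq assigned to no feature were 55.9% of those aligned uniquely in each library. This class can hold reads in introns and, if the counting was by strand, reads of exons on the other strand.

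From these counts CPM, mean ± SD over 2 libraries, and Wilson 95% intervals were computed. The libraries were compared by exact binomial tests on genes with at least 10 summed counts, calling an adjusted p under 0.05 with at least 2-fold (Python 3.11.15, scipy 1.17.1). The number of mice behind each library is not given, and p-values cover counting error between these libraries only. Lengths came from GENCODE M21, where 46288 symbols matched a single gene. edgeR 4.0.16 and DESeq2 1.42.0 gave other scalings. The 8 members and the lists were chosen with earlier results of these data known. The rule named the members, the highest and lowest gene of each list (per kb), genes set beside a member, and antisense overlaps, and other genes of the lists were named after their values were seen. Some genes of the lists are not reported here.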

Additional observations from a re-analysis of the deposited data

How the results depend on the processing

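No paired analysis was possible because there was a single group. Of the 8 genes, 8 stayed above 10 CPM under every scaling and with either replicate left out. Totals without 393 genes of mitochondrial or ribosomal RNA moved 7 of the 8 levels by more than 1 SD (*Zbtb7b* to 19.5 CPM). *Myb* rose as well, from 33.9 to 39.3 CPM, and stayed within 1 SD only because its SD was 16.5 CPM. In the order per kb, 4 genes kept their place with the longest transcript and 3 with the coding length, and 4 to 8 with a replicate left out. The ratio of *Zbtb7a* to *Zbtb7b* was 7.53 with the longest transcript, 9.87 with the coding length, and 8.003 to 8.96 in single replicates. That of *Runx3* to *Zbtb7b* was 17.6 with the coding length and 14.8 to 15.7 in single replicates. The number of the 8 that differed between the libraries was 0 with TMM, DESeq2, or totals without those RNA genes, 2 with no fold minimum, and 3 with TMM and no fold minimum, a setting chosen after seeing the data. Over all genes it was 2596 with no fold minimum, 1688 with TMM as well, 60 with the exact test of edgeR (coefficient of variation fixed at 0.1), and 55 with at least 100 counts. *Myb* still passed under edgeR (adjusted p = 0.00190). Each SD rests on 2 libraries.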
